A study of Mus musculus with 12 samples.

Results

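Neutrophils grown from HoxB8-ER progenitors labelled Ezh2-/- were compared with neutrophils grown from wild-type HoxB8-ER progenitors. The comparison uses 4 of the series' 12 arrays, 2 of each genotype, taken as the differentiated samples that received neither the EZH2 inhibitor GSK343 nor its vehicle. It covers 65956 transcript clusters, the array's units of measurement, each a set of probes for one transcript region. Of these clusters, 31212 carry 1 gene symbol, which gives 30740 genes when the brightest cluster of each gene is kept. Both lines were made from C57BL/6 bone marrow, one from Ezh2 null mice and the other from littermate controls. The marrow was transduced with HOXB8 fused to the ligand-binding domain of the estrogen receptor, which holds myeloid cells as dividing progenitors for as long as estradiol is present (here 0.5 µM). Estradiol was withdrawn for 6 days to give neutrophils, and each array, an Affymetrix Mouse Transcriptome Array 1.0, received 250 ng of RNA. The same lines were also measured before withdrawal, 2 arrays each, and these undifferentiated cells are called progenitors here. The labels do not say whether arrays of a group come from separate cultures, so the p-values measure the spread between arrays, and with 1 line per genotype the genotype cannot be told apart from the line.

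Ezh2 encodes the methyltransferase of Polycomb repressive complex 2, which places the repressive mark H3K27me3 on histone H3 at silent genes. In myeloid progenitors the lineage is settled by competing transcription factors, with C/EBP factors and PU.1 driving the granulocyte and monocyte programme and GATA factors driving the mast cell, basophil, eosinophil, erythroid and megakaryocyte programmes. A neutrophil stops dividing as it matures, fills several kinds of granule in turn and acquires the receptors with which it finds and engulfs microbes.

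Ezh2 itself did not separate the neutrophils in the direction of the labels. Its level was 8.31 and 8.34 on the wild-type arrays and 8.74 and 9.02 on the arrays labelled Ezh2-null (log2), so both labelled-null values lay above both wild-type values. The difference was 0.55 (SE 0.155) with adjusted p = 0.0501 in limma, just outside the threshold of 0.05. In progenitors of the same lines the mean was 11.61 in wild type and 9.27 in cells labelled Ezh2-null, a difference of -2.34 (adjusted p = 5.50e-05). Ezh2 in neutrophils passed the threshold under 4 of the alternatives, at adjusted p = 0.0345 with the replicate number as a block, 0.0473 with median centring, 0.0486 with quantile normalization and 0.0491 without dim clusters. The cluster summarises probes of the whole gene and no source used here names the deleted exons, so the level does not settle the genotype. The samples are therefore named by their labels throughout, and every direction below is that of the neutrophils labelled Ezh2-null.

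The 4 arrays had closely matched medians, and the correlation between arrays was 0.9914 to 0.9928 within a genotype and 0.9618 to 0.972 between genotypes. Background, the 95th percentile of 23 probe sets that match no mouse sequence, was 4.97 to 5.74 (log2) on these arrays. Labelled-null array 2 had the lowest background and the largest share of clusters above it, 43.4% against 33.3% to 36.0% on the other 3 arrays. The labelled-null neutrophils correlated with the progenitor arrays at 0.9307 to 0.9441 and the wild-type neutrophils at 0.8944 to 0.9234.

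At an adjusted p under 0.05 (limma, Benjamini-Hochberg over all clusters), 7791 of 65956 clusters (11.8%) differed between the genotypes, 4455 (6.75%) higher and 3336 (5.06%) lower in the neutrophils labelled Ezh2-null. Among genes with 1 symbol, 3086 of 30740 (10%) were called higher and 1963 (6.39%) lower. Of these genes 15007 were at background on all 4 arrays. Among the 13412 above background on both arrays of a genotype, 20.5% were called higher and 13.7% lower, and a list of mostly expressed genes is to be read against these shares. The arrays of the genotypes did not overlap for 17012 of the 30740 genes (55.3%), called or not. The total of 7791 clusters became 4922 without wild-type array 1 and 4023 without labelled-null array 2. Over all genes the median difference was -0.01, and over the 13412 it was 0.05. A fold is written as "at least" where every array of the dimmer genotype was at background, and is then measured from the background. It is a bound for that background only. The negative controls had higher medians, 6.37 and 6.60 on the wild-type arrays and 6.15 and 6.14 on the labelled-null arrays. Folds measured from these medians would be smaller. Gene lists were described by their counts and medians, and bulk RNA cannot tell more cells of a type from more RNA per cell.

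The genes furthest above wild type included 2 kinds of history, shown here by Tpsb2, Cpa3 and Car2. Other leading genes, such as Spire1, Mcpt8 and Gzmb, had further patterns in progenitors, given below. Tpsb2, a mast cell tryptase, was at background in progenitors of both lines (means 4.45 and 4.88) and in wild-type neutrophils (4.59 and 4.36), and stood at 16.44 and 16.45 in the neutrophils labelled Ezh2-null, at least 1987-fold higher. Cpa3, the mast cell carboxypeptidase, was already among the bright signals of both progenitor lines (18.81 and 18.10), fell to 7.25 and 8.02 in wild-type neutrophils and was 19.09 and 19.12 in labelled-null neutrophils. Car2, carbonic anhydrase 2, followed Cpa3, with 15.54 and 15.49 in progenitors, 6.10 and 6.17 in wild-type neutrophils and 17.06 and 17.23 in labelled-null neutrophils. Thus Tpsb2 was present in 1 of the 4 groups, whereas Cpa3 and Car2 were low in 1 of the 4.

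**Figure D1:**
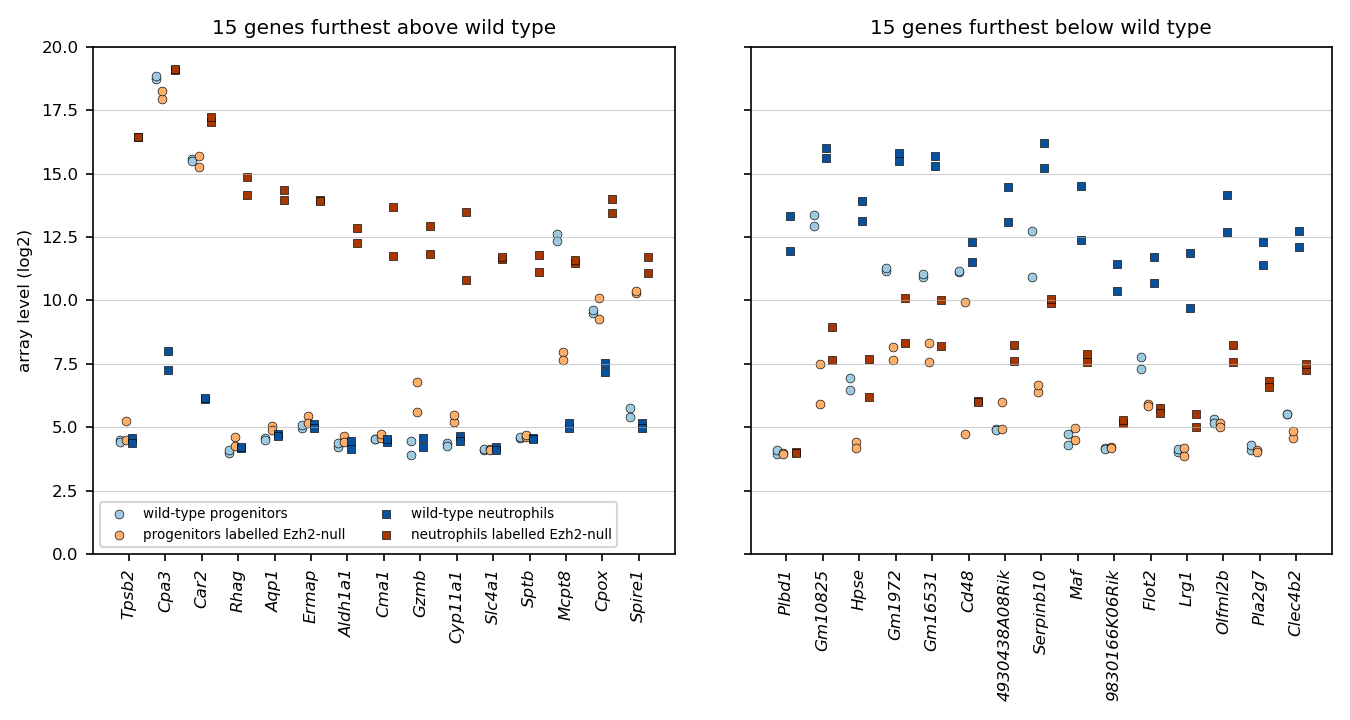
Array level (log2) of the 15 genes furthest above and the 15 furthest below wild type in neutrophils labelled Ezh2-null; each point is 1 of 2 arrays of a group, circles are progenitors and squares neutrophils. Tpsb2, Rhag, Aqp1 and Slc4a1 are low in 3 groups and high in labelled-null neutrophils only, while Cpa3, Car2 and Mcpt8 are also high in wild-type progenitors; Mcpt8 is lower in labelled-null than in wild-type progenitors.

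Across the called genes, presence in progenitors was counted on the progenitor arrays, which do not enter the difference itself. Of the 3086 genes called higher, 2429 (78.7%) were above background on both wild-type progenitor arrays. The share over all genes was 41.9%, but nearly all called genes were above background in neutrophils, all but 94 of these, so the shares are not like for like. Presence in progenitors alone does not show a fall in wild-type neutrophils. Of the genes called higher, 137 (4.44%) were above background on both wild-type progenitor arrays and at background on both wild-type neutrophil arrays. Over all genes that share was 2.25%. A smaller set of 129 (4.18%) was at background on all 4 progenitor arrays and both wild-type neutrophil arrays and above it on both labelled-null neutrophil arrays, a state that 134 genes held in all. Among the 1963 genes called lower, 1614 (82.2%) were above background on both wild-type progenitor arrays and 77 (3.92%) were at background on both labelled-null neutrophil arrays while above it on both wild-type ones. With a higher background limit, the median of the negative controls where that was larger, the counts 94, 137, 129 and 77 became 396, 393, 125 and 123.

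**Figure D2:**
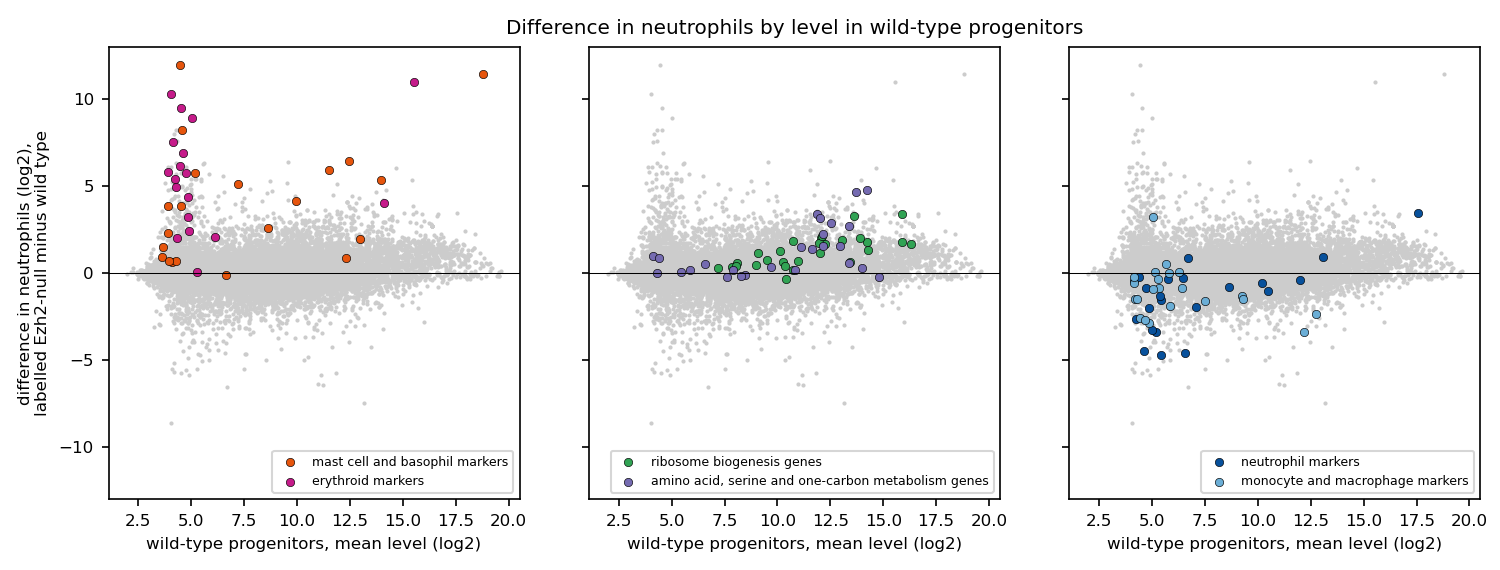
Difference in neutrophils (log2, labelled Ezh2-null minus wild type) against the mean level in wild-type progenitors (log2, 2 arrays), with all genes in grey. Most erythroid and several mast cell markers rise from the background end of the axis, the higher ribosome biogenesis and amino acid genes lie at high progenitor levels, and most neutrophil markers below 0 start from low progenitor levels.

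Promoters of 4 leading genes are shown for the letters that GATA factors are known to bind, because mast cell and erythroid genes lead the differences. They are the 4 with the largest differences among the mast cell, erythroid and neutrophil marker lists that have a promoter entry (RefSeq, GRCm38.p6), each given as the 250 bases before the start, 5′ to 3′ on the gene's strand. Capitals mark the GATA word AGATAA on the printed strand or TGATAA read on the opposite strand.
Cpa3, chr3:20242182-20242431, minus strand: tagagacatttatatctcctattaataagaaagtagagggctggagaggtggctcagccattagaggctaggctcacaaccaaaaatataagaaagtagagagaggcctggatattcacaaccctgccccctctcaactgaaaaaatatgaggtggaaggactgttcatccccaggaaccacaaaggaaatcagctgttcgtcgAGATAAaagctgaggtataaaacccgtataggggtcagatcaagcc
Rhag, chr17:40810899-40811148, plus strand: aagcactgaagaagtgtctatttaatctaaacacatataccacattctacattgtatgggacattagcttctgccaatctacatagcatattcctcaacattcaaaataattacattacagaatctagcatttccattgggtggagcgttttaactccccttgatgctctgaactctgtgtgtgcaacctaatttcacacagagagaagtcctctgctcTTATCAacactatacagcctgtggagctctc
Aqp1, chr6:55336049-55336298, plus strand: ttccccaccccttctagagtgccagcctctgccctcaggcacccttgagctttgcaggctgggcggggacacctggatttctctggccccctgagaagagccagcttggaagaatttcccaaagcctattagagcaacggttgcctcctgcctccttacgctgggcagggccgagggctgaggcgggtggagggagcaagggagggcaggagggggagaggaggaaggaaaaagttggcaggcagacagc
Ermap, chr4:119189996-119190245, minus strand: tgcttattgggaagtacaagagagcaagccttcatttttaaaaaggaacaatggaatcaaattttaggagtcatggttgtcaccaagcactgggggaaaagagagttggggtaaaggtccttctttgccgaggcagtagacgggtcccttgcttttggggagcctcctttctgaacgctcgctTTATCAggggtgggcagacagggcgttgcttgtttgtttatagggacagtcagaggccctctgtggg

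The match ended 41 bases before the start in Cpa3, 26 bases in Rhag and 62 bases in Ermap, and Aqp1 held none of the words searched. In windows of 250 bases before to 50 after the start, AGATAA or TGATAA on either strand was held by 10 of 18 mast cell and basophil markers with an entry (55.6%), 9 of 13 erythroid markers (69.2%) and 3 of 20 neutrophil markers. The share over all tested genes with an entry was 18.1% (3302 of 18200), against 257 of 1714 genes called higher and 13.6% of genes called lower. The PU.1 word GAGGAAGT was in 3.33% of promoters called higher, 6.76% called lower and 3.53% of all. The E2F word TTTGGCGC was in 1.63%, 0.535% and 0.758%, the palindromic C/EBP word TTGCGCAA in 0.408%, 0.201% and 0.242%, and the interferon response word GAAANNGAA in 10.2%, 9.30% and 9.36%, in the same order. The E-box CACGTG, which MITF can bind, was in 10.9%, 12.4% and 8.93%, and the E-box CATGTG in 180 of 1714, 194 of 1495 and 2493 of 18200. A match is a description of the letters and was not tested for binding.

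Mast cell and basophil markers were higher as a group. Of 21 measured, 18 were called higher and 0 lower, with a median difference of 3.86. Their summed signal was 13.97 and 12.86 on the wild-type arrays against 19.41 and 19.46 on the labelled-null arrays (log2 of the sum). Most of the labelled-null sum is Cpa3. On progenitor arrays the sum was 18.88 and 18.97 in wild type and 18.19 and 18.59 in labelled-null cells. Cma1, the mast cell chymase, was 4.42 and 4.55 in wild-type neutrophils and 11.77 and 13.68 in labelled-null neutrophils. Mcpt8, the basophil protease, was 4.98 and 5.17 against 11.46 and 11.58. Its progenitor levels ran the other way, 12.48 in wild type and 7.81 in labelled-null cells, so the sign of its genotype difference was opposite at the 2 stages. Cma1 varied between the labelled-null arrays, while Mcpt8 and Tpsb2 were nearly equal on them.

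The receptor side of the mast cell programme was present too. Kit, the stem cell factor receptor, was 6.68 and 6.32 against 11.99 and 11.71, a difference of 5.35 (SE 0.253, adjusted p = 3.82e-06), and was 13.95 and 14.99 in the progenitors. Ms4a2, the beta chain of the high-affinity IgE receptor, was 5.00 and 4.91 against 9.64 and 10.55, at least 24.3-fold higher, and Fcer1a, its alpha chain, was 4.01 and 3.81 against 6.90 and 8.67, at least 4.91-fold higher. Cd200r3, an activating receptor of basophils and mast cells, rose from 5.20 and 5.83 to 10.05 and 12.45. The arrays of the 2 genotypes did not overlap for these genes, as for every called gene. Mitf, the transcription factor of mature mast cells, was 8.79 and 9.68 against 9.21 and 9.06 and was not called (-0.10, adjusted p = 0.899). Mrgprx2, another member of the marker list, was at background on all 4 arrays and not called. Tpsab1, Mcpt1 and Itga2, singled out after their values were seen, were called higher although at background on all 4 arrays. Tpsab1 is a near-identical neighbour of Tpsb2, and probes for such copies can share signal.

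Within the broader serine protease list, 12 of 24 members were called higher and 0 lower (median 0.77). Of the 24, 8 are also mast cell and basophil markers, and 4 of the other 16 were called higher. Of the 12 called, Cma2, Mcpt1, Mcpt9 and Tpsab1 were at background on all 4 arrays. Gzmb, granzyme B, was 4.56 and 4.21 against 11.83 and 12.93, at least 119-fold higher, and was also higher in labelled-null progenitors (4.18 against 6.18, adjusted p = 0.0409). The promyelocyte proteases Prtn3 (6.61 and 6.30 against 8.24 and 6.48) and Prss57 (6.41 and 6.25 against 6.18 and 5.67) were not called. Prtn3 was called higher without labelled-null array 2 (lowest adjusted p = 0.0150), the array on which it lay within the wild-type range.

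Genes for amine storage and lipid mediators moved in both directions, with 8 of 24 called higher and 3 lower (median 0.20). Slc18a2, which loads histamine and serotonin into granules, was 5.67 and 5.88 in wild-type neutrophils and 11.31 and 12.06 in labelled-null neutrophils, a difference of 5.91 (SE 0.436). Cyp11a1, a mitochondrial enzyme that opens steroid synthesis, was 4.67 and 4.45 against 10.80 and 13.50, and Alox15, the 15-lipoxygenase of eosinophils and other cells, was 4.30 and 4.45 against 7.44 and 8.76. Lta4h, which makes leukotriene B4, the neutrophil attractant, was lower, 14.79 and 13.69 against 11.68 and 11.28 (difference -2.76, adjusted p = 0.000647). Alox5ap, the partner of 5-lipoxygenase, was 18.24 and 17.55 against 17.89 and 17.63 and was not called, nor was Hpgds, a prostaglandin D2 synthase (11.16 and 13.01 against 11.17 and 11.06). Hpgds was called lower without wild-type array 1 (adjusted p = 0.0119), which held the lower wild-type value. The count of 3 lower members became 1 without labelled-null array 1.

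Eosinophil markers had 4 of 9 called higher, 0 lower and a median of 0.67, and 1 was called lower without either wild-type array. Ear6, an eosinophil ribonuclease, was 5.34 and 5.77 against 6.96 and 6.59. Il5ra, the interleukin 5 receptor that defines the lineage, was called (difference 1.02) but at background on all 4 arrays. Ccr3, another called member, lost its call with the 4 compared arrays alone. Its difference was 0.71 to 1.29 with 1 array left out. With dim clusters left out, 5 markers were tested and 2 were called higher. Prg2, the major basic protein, was 8.68 and 9.90 against 10.33 and 9.20 and was not called, and Siglecf was 9.64 and 8.43 against 8.34 and 8.08 (adjusted p = 0.188, and called lower without wild-type array 2 at 0.00802).

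Erythroid markers formed the list with the largest median difference, 5.57, and 17 of 18 measured were called higher with 0 lower. Their summed signal was 15.94 and 14.18 on the wild-type arrays and 18.34 and 18.63 on the labelled-null arrays. Rhag, a channel of the Rh complex, was 4.17 and 4.22 against 14.17 and 14.87, at least 522-fold higher. Aqp1, the red cell water channel, was 4.73 and 4.65 against 13.96 and 14.37, and Ermap, an erythroid membrane protein, was 5.11 and 4.95 against 13.98 and 13.94. None of these was above 5.31 on average in either progenitor line. Hbb-y, an embryonic globin, was 5.17 and 5.38 against 5.28 and 5.37 and was not called. The adult globin genes were not analysed here.

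Membrane skeleton and blood group genes had 19 of 22 called higher, 0 lower and a median of 5.16. Of the 22, 10 are also among the erythroid markers, and 9 of the other 12 were called higher. Slc4a1, the band 3 anion exchanger, was 4.23 and 4.11 against 11.63 and 11.73, at least 73.0-fold higher. Sptb, erythroid beta spectrin, was 4.57 and 4.54 against 11.11 and 11.79, at least 62.2-fold higher. Cd44, a membrane protein with a broad range, was 13.18 and 12.60 against 13.04 and 12.49 and was not called. Tspan33, a tetraspanin of erythroid cells, stood among the family of 20 tetraspanins, 7 higher and 3 lower (1 without labelled-null array 2), with 4.63 and 4.55 against 10.07 and 10.72. Slc14a1, the urea transporter that carries the Kidd blood group, was 5.00 and 4.99 against 10.48 and 10.29 and was already higher in labelled-null progenitors (5.18 against 8.04, adjusted p = 0.0117).

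Haem synthesis and iron genes included 14 of 26 called higher and 2 lower, with a median of 1.34. Cpox, coproporphyrinogen oxidase, was 7.16 and 7.55 against 13.47 and 14.02, 83.9-fold higher. Abcb10, a mitochondrial transporter needed for haem production, was 6.43 and 6.20 against 10.75 and 11.06, and Alad, the second enzyme of the pathway, was 5.91 and 6.16 against 10.04 and 10.67. Tfrc, the transferrin receptor, was 9.66 and 10.02 against 13.92 and 13.82, close to the 14.10 and 12.55 of the progenitors. The ferritin gene Fth1 averaged 16.84 in wild type and 16.98 in labelled-null neutrophils and was not called, nor was Ftl1 (16.32 and 16.76 against 16.44 and 16.53). The 2 lower calls in this list became 0 without wild-type array 1 or labelled-null array 2 and 1 without wild-type array 2.

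Of 26 glycolysis genes 5 were called higher and 5 lower (median 0.01), beside 20.5% and 13.7% of genes above background. Pklr, the pyruvate kinase of red cells and liver, was among the higher ones. It was 5.17 and 5.18 against 9.02 and 8.38, at least 9.24-fold higher, and Pfkm, the muscle-type phosphofructokinase that red cells also use, was 6.75 and 7.20 against 9.13 and 9.27. Hk3, the hexokinase of mature granulocytes, was lower, 12.74 and 12.20 against 9.48 and 10.34, and was lower still in labelled-null progenitors (12.89 against 6.99). Pfkfb4, which sets the level of fructose 2,6-bisphosphate, was 11.26 and 10.55 against 8.13 and 7.88. Gapdh averaged 17.09 in wild type and 16.97 in labelled-null neutrophils, and neither it nor Pgk1 was called. The 5 lower calls became 3 without wild-type array 1 or labelled-null array 2, and the 5 higher calls became 2 without wild-type array 1 or either labelled-null array and 3 without wild-type array 2.

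The transcription factors of the GATA and SCL circuit had 11 of 21 members called higher and 2 lower (median 0.82). Zfpm1, the GATA cofactor FOG1, was 6.34 and 6.19 in wild-type neutrophils and 11.34 and 11.80 in labelled-null neutrophils, 39.6-fold higher. Gfi1b, a repressor of erythroid and megakaryocyte cells, was 5.84 and 5.80 against 9.89 and 10.63, and Klf1, the erythroid Krüppel-like factor, was 4.74 and 4.82 against 8.88 and 9.39. Gata2, the progenitor and mast cell GATA factor, was 6.54 and 6.15 against 10.06 and 10.91, near its progenitor levels of 9.97 and 11.50. Gata1, chosen after its values were seen, was 4.39 and 4.34 against 6.43 and 6.39 (difference 2.04, adjusted p = 6.55e-06). Lyl1 (12.95 and 13.17 against 12.33 and 11.24) and Klf13 were not called, and the 2 lower calls became 0 without wild-type array 1 or labelled-null array 2.

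The neutrophil and monocyte factors had 0 of 19 called higher and 4 lower, with a median of -0.38 (-0.70 to -0.21 with 1 array left out). Maf, a macrophage factor, was 12.39 and 14.51 in wild-type neutrophils and 7.56 and 7.88 in labelled-null neutrophils, and was at background in progenitors. Nr4a1, the factor of patrolling monocytes, was 8.08 and 8.30 against 6.85 and 5.96. Cebpa and Cebpe, which drive granulocyte commitment and late granule genes, differed by -1.35 and -1.77. Cebpa lost its call without either labelled-null array (highest adjusted p = 0.0799) and Cebpe without wild-type array 1 or either labelled-null array (highest 0.200). The list's 4 lower calls became 2 without labelled-null array 2, and 1 member was called higher without wild-type array 2 or either labelled-null array. Klf6 (14.71 and 14.08 against 14.49 and 13.71) and Bcl6 (12.99 and 11.68 against 12.88 and 11.03), were not called.

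**Figure D3:**
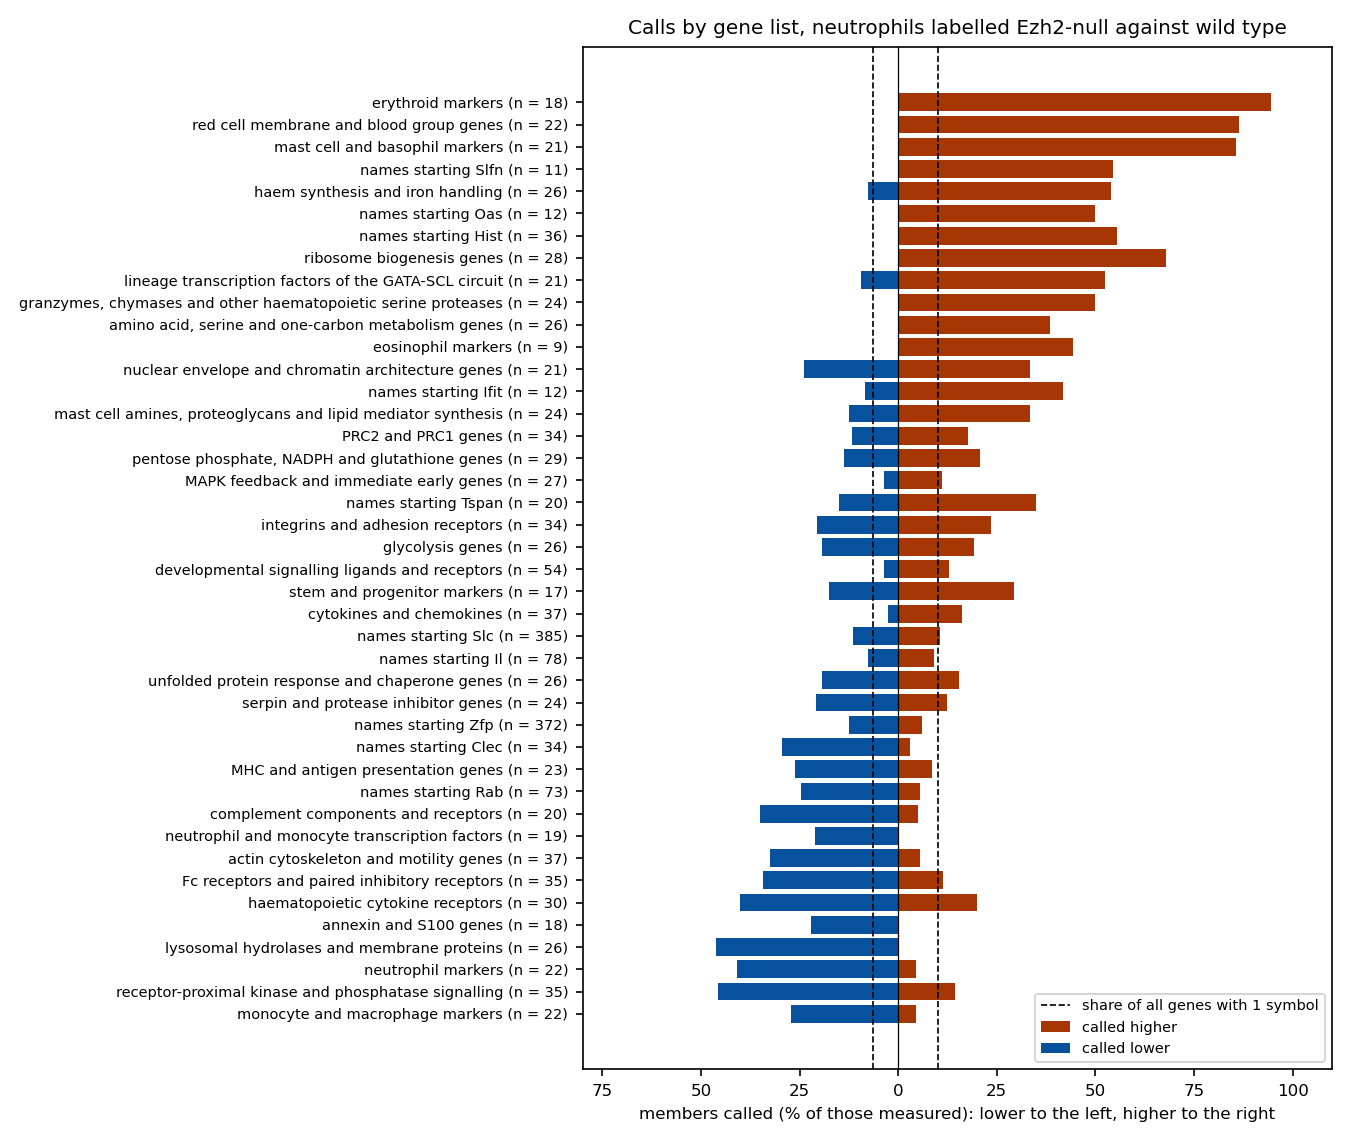
Share of measured members called higher (right) or lower (left) in neutrophils labelled Ezh2-null, for the lists and name families with at least 4 calls, ordered by median difference; dashed lines are the shares over all genes with 1 symbol, 10% higher and 6.39% lower. The shares over genes above background, 20.5% higher and 13.7% lower, are not drawn, and lists of mostly expressed genes are to be read against these. Erythroid, red cell membrane and mast cell lists reach furthest right, and lysosomal, proximal signalling and neutrophil marker lists furthest left.

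Growth genes were higher. Myc, which drives growth and ribosome production, was 5.83 and 6.49 in wild-type neutrophils and 9.55 and 10.36 in labelled-null neutrophils, 13.9-fold higher, and 13.30 and 13.98 in the progenitors. Ribosome biogenesis genes had 19 of 28 called higher and 0 lower, with a median of 1.21. Nop58, a box C/D snoRNP core protein, was 10.17 and 10.83 against 13.76 and 13.98, and Dkc1, the pseudouridine synthase dyskerin, averaged 7.86 in wild type and 11.13 in labelled-null neutrophils. Both remained below their progenitor means of 15.90 and 13.62 in wild type. Polr1a, the largest subunit of RNA polymerase I, was 10.03 and 9.95 against 10.18 and 10.19 and was not called.

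Amino acid and one-carbon genes followed, with 10 of 26 called higher, 0 lower and a median of 0.71. Slc7a5, the large neutral amino acid transporter, averaged 7.51 in wild type and 12.26 in labelled-null neutrophils, 26.9-fold higher. Odc1, which opens polyamine synthesis, was 7.82 and 8.01 against 12.69 and 12.48. Mthfd1, a folate enzyme, was 7.50 and 7.86 against 11.02 and 11.14, and Aldh18a1, for proline synthesis, was 6.91 and 7.36 against 10.10 and 10.51. Slc3a2, the heavy chain that partners Slc7a5, was 12.29 and 12.79 against 13.12 and 13.06 and was not called. Of the chaperones, the mitochondrial Hspd1 (9.80 and 10.11 against 12.22 and 11.96) and the cytosolic Hsp90aa1 (12.88 and 13.42 against 15.11 and 14.99) were higher, whereas Xbp1, a factor of the endoplasmic reticulum stress response, was lower (12.84 and 12.38 against 11.07 and 10.84). Their list is to be read beside the shares over genes above background, 20.5% higher and 13.7% lower. That list of 26 had 4 higher and 5 lower calls, and the lower calls became 3 without any 1 of wild-type array 1, wild-type array 2 or labelled-null array 1, and 1 without labelled-null array 2.

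Histone genes had 20 of 36 members called higher and 0 lower, with a median of 1.23. H1f1, a linker histone, was 5.69 and 5.76 in wild-type neutrophils and 9.42 and 9.17 in labelled-null neutrophils, near its wild-type progenitor mean of 9.85. H1f5 was 7.96 and 7.77 against 11.21 and 11.29, and H3c3 was 7.19 and 7.33 against 10.68 and 10.08, above its progenitor means of 8.01 and 8.48. Histone genes lie in near-identical copies, and signal may be shared between them. Hmgb3, a chromatin protein of progenitors, was 6.71 and 6.83 against 9.69 and 9.66, and Cbx5, heterochromatin protein 1 alpha, was 6.86 and 7.44 against 9.25 and 9.43.

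Hmgb3 and Cbx5 belong to the nuclear envelope and chromatin architecture list, which had 7 of 21 higher and 5 lower (median 0.46, and 0.29 without labelled-null array 2). Padi4, which citrullinates histones when neutrophils release chromatin, was 13.67 and 12.19 against 9.91 and 9.45 (difference -3.25, adjusted p = 0.00164). Lbr, the lamin B receptor that gives the granulocyte nucleus its lobes, was 14.68 and 13.72 against 14.32 and 14.07 and was not called (0.00, adjusted p = 0.999). Among 34 Polycomb genes 6 were higher and 4 lower (median 0.15), near the shares over genes above background, 20.5% and 13.7%. Bmi1, a subunit of Polycomb repressive complex 1, was 8.19 and 8.55 against 10.68 and 10.69, and Rbbp7, a histone chaperone found in PRC2, was 10.52 and 11.14 against 12.24 and 12.22. Phf1, a PRC2 partner, was lower at 10.64 and 9.93 against 8.07 and 7.81, as was Ezh1, the second methyltransferase of the complex, at 12.22 and 12.04 against 11.03 and 10.79. Eed, a core subunit, was 11.30 and 11.17 against 11.86 and 11.33 and was not called. The 4 lower Polycomb calls became 2 without wild-type array 1 or either labelled-null array.

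Members of 4 families known as interferon targets were higher. Of 12 Ifit genes 5 were called higher and 1 lower (median 0.35, and 0.12 to 0.69 with 1 array left out), of 12 Oas genes 6 higher and 0 lower (1.28, and 0.51 to 2.29), of 11 Schlafen genes 6 higher and 0 lower (1.83), and of 7 Gbp genes 3 higher and 0 lower. The median of the Gbp family was -0.33, opposite in sign to its calls. It was 0.44 without wild-type array 2, and -0.95 with 3 members called lower without wild-type array 1. Ifit1, which binds foreign RNA caps, was 6.42 and 8.06 in wild-type neutrophils and 12.70 and 12.65 in labelled-null neutrophils, with progenitor means of 4.98 and 5.24. Slfn1 was 7.92 and 7.99 against 12.93 and 13.06, 33.0-fold higher, and Gbp2, a guanylate-binding protein, was 6.15 and 6.67 against 11.35 and 10.22.

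The wild-type arrays differed from each other in these families. Oasl2 was 5.64 and 8.04 in wild type against 11.39 and 12.32, and Oas2, a sensor of double-stranded RNA, was 7.81 and 11.20 against 13.02 and 13.81. Oas2 was called (3.90, adjusted p = 0.0179) but not without either labelled-null array (highest 0.123). Wild-type array 2 exceeded array 1 in 8 of 12 Ifit, 10 of 12 Oas, 7 of 11 Slfn and 7 of 7 Gbp genes, with median gaps of 0.55, 0.58, 0.28 and 0.91. Ifit1bl2 went the other way to its family, with 8.02 and 6.84 against 5.44 and 5.62.

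**Figure D4:**
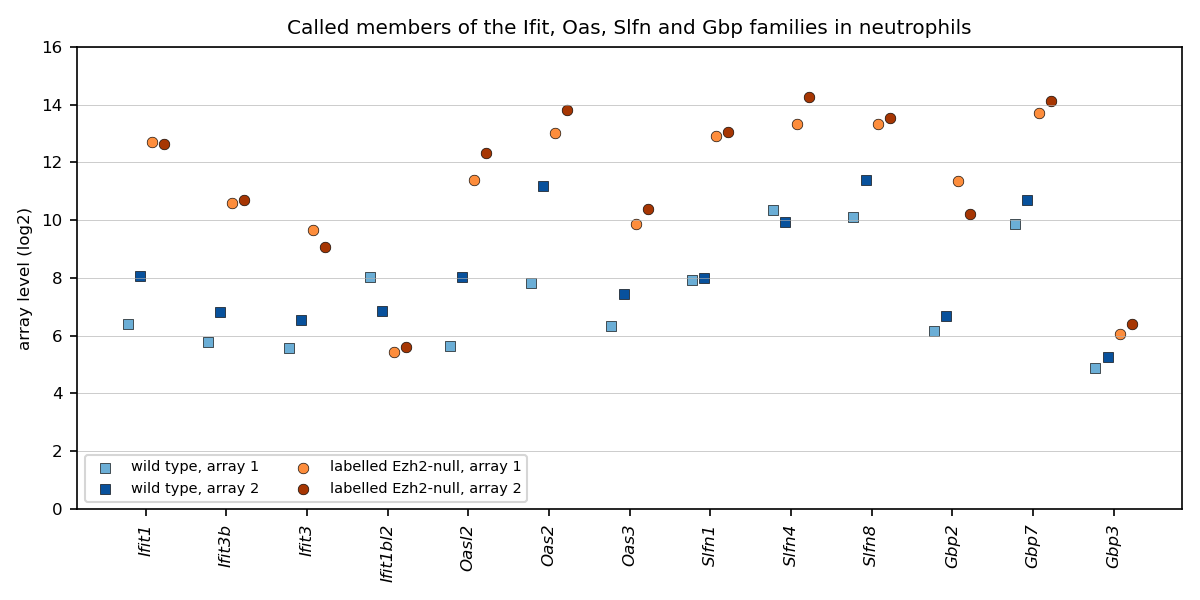
Array level (log2) in neutrophils of the called Ifit, Oas, Slfn and Gbp genes that are named by the selection rule, 1 point per array. Only called genes are shown, so the genotypes separate by selection; Ifit1bl2 is the one lower in labelled-null neutrophils, and wild-type array 2 exceeds array 1 most for Oas2 and Oasl2.

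Cytokine genes had 6 of 37 called higher and 1 lower (median -0.02), beside 20.5% and 13.7% of genes above background. Of the 37, 12 were at background on all 4 arrays. Il6 was at background in wild-type neutrophils (3.96 and 3.94) and 6.56 and 9.47 in labelled-null neutrophils, at least 5.75-fold higher, with adjusted p = 0.00916 and 0.0509 without wild-type array 1. Cxcl2, a neutrophil chemokine, was 5.19 and 6.36 against 8.69 and 7.26, the monocyte chemokine Ccl2 averaged 7.56 in wild type and 9.50 in labelled-null neutrophils, and Csf1, the macrophage growth factor, was 10.22 and 11.15 against 11.63 and 12.77. Cxcl2, Ccl2 and Csf1 lost their call without wild-type array 1, Cxcl2 also without labelled-null array 1 and the other 2 without labelled-null array 2, with highest adjusted p of 0.0823, 0.213 and 0.261 among the left-out arrays. The count of 6 higher became 0 without wild-type array 1 and 3 without labelled-null array 2, and the single lower call became 2, 3 and 0 without wild-type array 1, wild-type array 2 and labelled-null array 2. Ccl6 (12.66 and 12.50 against 13.21 and 12.82) and Ccl9, both abundant in myeloid cells, were not called.

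Neutrophil markers were mostly lower or not called. Of 22 measured, 9 were called lower and 1 higher, with a median of -0.94, and the summed signal was 21.99 and 21.52 on the wild-type arrays against 21.32 and 20.82. After quantile normalization the median was -1.53. S100a8, a subunit of calprotectin, was 19.38 and 19.05 against 19.09 and 18.73, and Stfa2l1, a stefin, was 19.18 and 19.02 against 19.04 and 18.71, and neither was called. S100a9, the partner subunit, was 18.79 and 18.23 against 18.38 and 17.95. In progenitors S100a9 and Stfa2l1 were higher in labelled-null cells (5.74 against 9.40 and 4.37 against 9.23).

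Camp, the cathelicidin of specific granules, was 15.31 and 13.89 against 9.63 and 10.11, 26.6-fold lower. Wfdc21, a secreted inhibitor of mature neutrophils, was 15.29 and 14.12 against 10.49 and 9.78, and Cd177, a surface antigen of neutrophils, was 12.48 and 10.70 against 7.25 and 6.98. Mpo, the myeloperoxidase of the early azurophil granule, was higher, 7.34 and 7.40 against 12.03 and 9.66 (adjusted p = 0.00440), and had been 17.58 and 16.97 in progenitors. Camp, Wfdc21 and Cd177 had progenitor means of 4.40 to 6.58. Without wild-type array 1 or labelled-null array 2 a second marker was called higher.

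Several of the genes furthest below wild type were low in progenitors. Plbd1, a granule phospholipase B-like protein, was 4.03 and 3.95 in progenitors, 13.32 and 11.94 in wild-type neutrophils and 4.02 and 3.98 in labelled-null neutrophils, at least 155-fold lower. Lrg1, a secreted granule glycoprotein, was 11.87 and 9.72 against 5.52 and 5.01, and Pla2g7, which inactivates platelet-activating factor, was 11.38 and 12.32 against 6.82 and 6.57. Olfml2b, an extracellular matrix protein, was 14.17 and 12.69 against 8.23 and 7.58, with progenitor means of 5.26 and 5.08. The unnamed transcripts 4930438A08Rik (14.49 and 13.08 against 8.23 and 7.63) and 9830166K06Rik (11.43 and 10.36 against 5.16 and 5.28) were also lower, and wild-type array 1 was above array 2 for Plbd1, Lrg1, Olfml2b and both transcripts.

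Serpinb10, Hpse and Flot2 already had lower means in the labelled-null progenitors. Progenitor levels are not given for the other genes of this paragraph. Serpinb10, a serpin of bone marrow cells, was 11.84 and 6.51 in progenitors and 16.20 and 15.24 against 9.89 and 10.07 in neutrophils. Hpse, heparanase, was 6.70 and 4.30 in progenitors and 13.12 and 13.91 against 6.21 and 7.70. Flot2, a membrane raft protein, was 7.52 and 5.89 in progenitors and 11.70 and 10.70 against 5.76 and 5.57, and the predicted gene Gm10825 was 16.01 and 15.61 against 8.96 and 7.67. Gm1972 (15.82 and 15.50 against 10.09 and 8.32) and Gm16531 (15.68 and 15.32 against 10.02 and 8.22) had nearly the same values, and whether their probes overlap was not tested. Cd48, an adhesion ligand of leukocytes, was 11.50 and 12.29 against 6.03 and 6.00 with a large SE of 1.25, and it lost its call whichever array was left out (adjusted p 0.0555 to 0.0819).

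Monocyte and macrophage markers, the other cell type such cultures can hold, were lower in 6 of 22 and higher in 1 (median -1.12). Mertk, a receptor for apoptotic cells, was 9.31 and 10.74 against 7.59 and 6.70, and C1qb, a complement chain made by macrophages, was 7.50 and 8.74 against 5.74 and 5.34. Ly6c2, the Ly6C antigen, was 17.33 and 16.93 against 13.81 and 13.65, with an SE of 0.757, and was not called when any 1 array was left out (adjusted p 0.0590 to 0.104). Lpl, lipoprotein lipase, was the higher member, 9.81 and 11.20 against 13.05 and 14.41. Ctss, cathepsin S, was 16.52 and 16.75 against 16.30 and 16.94 and was not called. The summed signal of the list was 18.43 and 18.77 in wild type and 17.16 and 17.74 in labelled-null neutrophils. Wild-type array 2 exceeded array 1 in 19 of the 22 markers, by a median of 0.96. Without wild-type array 2 the list had 4 lower and 2 higher calls and a median of -0.45, and without wild-type array 1 the median was -1.68.

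Haematopoietic cytokine receptors had 12 of 30 called lower and 6 higher (median -0.67, which was -0.14 without labelled-null array 2 and -0.35 without wild-type array 1). Il1r2, the interleukin 1 decoy receptor of neutrophils, was 13.52 and 11.94 against 9.83 and 8.44, and Il6ra was 13.89 and 13.36 against 12.34 and 10.47, the latter losing its call without either wild-type array or labelled-null array 2 (highest adjusted p = 0.133). Epor, the erythropoietin receptor, was 4.79 and 4.76 against 7.09 and 7.34, at least 3.30-fold higher. Csf3r, the receptor of the granulocyte growth factor G-CSF, was 15.56 and 14.96 against 15.50 and 13.46 and was not called. The 12 lower calls became 4 without wild-type array 2 or labelled-null array 2.

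Fc and paired immune receptors were lower in 12 of 35 and higher in 4 (median -0.61, and -0.29 without wild-type array 2), the higher ones including the 3 mast cell and basophil receptors given above. Trem3, an activating receptor of myeloid cells, was 14.13 and 12.70 against 9.98 and 9.52 and was also lower in labelled-null progenitors (10.76 against 6.94). Lilrb4a, an inhibitory receptor, was 16.67 and 17.41 against 17.54 and 17.81 and was not called. The 12 lower calls became 3 without wild-type array 1 or labelled-null array 2. The C-type lectins, pattern receptors of myeloid cells, were lower in 10 of 34 and higher in 1. Clec4b2 was 12.74 and 12.09 against 7.27 and 7.50, 32.7-fold lower, and Clec4a3 was 12.66 and 13.66 against 9.61 and 10.39. Clec7a, the beta-glucan receptor dectin-1, was the higher one; it averaged 11.99 in wild type and 13.71 in labelled-null neutrophils, although it was lower in labelled-null progenitors (5.85 against 3.86).

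Complement genes had 7 of 20 called lower and 1 higher (median -0.34, and -0.19 without wild-type array 1). C5ar1, the receptor for the chemoattractant C5a, was 10.55 and 10.93 against 9.02 and 7.78, and Cd46, a complement regulator, was 9.50 and 9.25 against 7.76 and 7.59. Cd55, decay-accelerating factor and a blood group protein of red cells, was the higher one, 4.43 and 4.39 against 10.03 and 10.32, at least 25.7-fold. C3ar1 was 12.70 and 13.98 against 14.06 and 15.47 and was not called (adjusted p = 0.121, though called without wild-type array 2 or labelled-null array 1, lowest 0.0364). The 7 lower calls became 4 without wild-type array 2, and the single higher call became 3 without wild-type array 2 and 2 without labelled-null array 1. Of 23 antigen presentation genes 6 were lower and 2 higher (median -0.24, and -0.39 to -0.09 with 1 array left out). Cd80 and Cd86, both costimulatory ligands, moved apart, Cd80 from 12.46 and 12.08 to 10.26 and 9.65 and Cd86 from background, 4.99 and 4.96, to 7.30 and 6.34. B2m was 18.44 and 18.72 against 18.60 and 18.81 and was not called, and the 6 lower calls became 3, 2 and 1 without wild-type array 1, wild-type array 2 and labelled-null array 1, and the 2 higher became 1 without wild-type array 1 or labelled-null array 2.

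Integrins and adhesion receptors were split, with 8 of 34 higher and 7 lower (median 0.02), beside 20.5% and 13.7% of genes above background. Itgb5 was 11.94 and 12.14 against 9.25 and 7.94, and Itga6, a laminin receptor subunit, was 12.25 and 12.72 against 10.05 and 9.48. Cd34, a progenitor sialomucin, was 9.07 and 9.79 against 11.81 and 11.55, well under its progenitor means of 16.81 and 16.84. Itgb3 was 8.87 and 7.64 against 10.27 and 12.33 and lost its call without wild-type array 2 or labelled-null array 2 (highest adjusted p = 0.174). Without wild-type array 1 or labelled-null array 2 the counts were 5 higher and 4 lower.

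Signalling genes close to these receptors were lower in 16 of 35 and higher in 5, with a median of -0.97 (-0.63 without labelled-null array 2). Bmx, a Tec-family kinase, was 13.23 and 11.57 against 9.94 and 8.42. The higher members were Fyn, Plcg1, Lat, Grap2 and Inpp4b. Grap2, an adaptor that binds SLP-76, was 4.76 and 4.62 against 7.50 and 8.15, and Fyn, a Src-family kinase, was 5.07 and 5.29 against 7.29 and 8.63. Ptprc, the phosphatase CD45, was 15.69 and 15.19 against 15.14 and 14.40 and was not called. The 16 lower calls became 7 without wild-type array 1 and 6 without labelled-null array 2, and the 5 higher became 3 and 2. Among 27 feedback and immediate early genes 3 were higher and 1 lower, beside 20.5% and 13.7% of genes above background. Dusp4, a MAP kinase phosphatase, was 5.49 and 5.36 against 6.92 and 8.25. Spry2, an inhibitor of receptor tyrosine kinase signalling, was 6.54 and 6.83 against 5.60 and 5.74. The single lower call became 2 without either wild-type array and 4 without labelled-null array 1.

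Actin and motility genes were lower in 12 of 37 and higher in 2 (median -0.59). Was, the Wiskott-Aldrich syndrome protein, was 11.80 and 11.57 against 10.29 and 9.96. Fmnl2, a formin, was higher at 5.55 and 5.19 against 10.57 and 9.52, and it was higher in labelled-null progenitors too (5.01 against 8.33). Actb (18.35 and 18.16 against 18.07 and 17.82) and Cfl1 were not called. The 12 lower calls became 3 without wild-type array 1, 7 without labelled-null array 1 and 2 without labelled-null array 2. They became 21 after quantile normalization (median -0.93), 4 with the 8 genotype arrays alone, 6 with the 4 compared arrays alone and 7 with limma's trend and robust options.

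Lysosomal genes had 12 of 26 called lower and 0 higher, with a median of -0.76. Sgsh, a sulfamidase for heparan sulfate, was 8.80 and 9.18 against 6.03 and 5.53, 9.27-fold lower, and Neu1, the lysosomal sialidase, was 10.56 and 10.43 against 7.95 and 8.24. Ppt1, a thioesterase, was 12.11 and 12.01 against 10.69 and 10.43. Lamp1 (16.01 and 16.53 against 15.81 and 15.85) and Lipa (16.68 and 16.89 against 16.62 and 16.20) were not called, and the 12 calls became 7 without labelled-null array 2. Rab GTPases, which direct vesicle traffic, were lower in 18 of 73 and higher in 4. Rab31 was 13.98 and 13.52 against 11.34 and 10.16, and Rab3d, a secretory granule Rab, was 10.81 and 9.37 against 7.69 and 7.54. Rab27b, which serves granule release in mast cells, was 4.81 and 4.91 against 6.75 and 6.46, at least 2.17-fold higher. The 18 lower calls became 9 without wild-type array 1 and 8 without labelled-null array 2, and the 4 higher became 2 without wild-type array 1.

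Annexins and S100 genes had 4 of 18 called lower and 0 higher (median -0.72), all 4 of them annexins. Anxa3 was 14.01 and 13.45 against 11.71 and 11.68, and Anxa7 was 10.98 and 10.27 against 9.52 and 9.41. The count became 2 without labelled-null array 2. Serpins and other inhibitors had 5 of 24 lower and 3 higher (median -0.10), beside 13.7% lower and 20.5% higher over genes above background. Serpinb6b was 4.79 and 5.04 against 7.92 and 7.48, and Serpinb1a, which inhibits neutrophil elastase, was 16.56 and 14.82 against 13.39 and 12.34 with adjusted p = 0.00648, and 0.0598 without labelled-null array 2. Without either labelled-null array the 5 lower calls became 3, and without wild-type array 1 the 3 higher calls became 1.

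Redox enzymes moved in both directions. Of 29 pentose phosphate, NADPH and glutathione genes, 6 were higher and 4 lower (median 0.12). These counts are near the shares over genes above background, 20.5% and 13.7%. Nqo1, a quinone reductase, was 5.07 and 4.96 against 8.56 and 7.93, at least 6.74-fold higher, and Gclc, the rate-limiting enzyme of glutathione synthesis, was 9.70 and 10.09 against 12.62 and 12.64. Mgst2, a microsomal glutathione transferase, was 11.20 and 9.81 against 6.60 and 6.64, 14.7-fold lower. Gpx1 (16.63 and 16.52 against 16.51 and 16.60) and Cat, catalase, were not called. The 4 lower calls became 2 without wild-type array 1 or labelled-null array 2.

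Lymphoid and stromal markers were mostly at background, and dendritic and megakaryocyte markers were not. Of 15 T and NK cell markers 0 were called in limma (1 lower without wild-type array 1 or labelled-null array 2) and 12 were at background on all 4 arrays, and Cd3d was 5.33 and 5.24 against 5.18 and 5.24. Of 14 stromal and endothelial markers 11 were at background on all 4 arrays and 1 was called, Pdgfrb, which was 5.58 and 6.25 against 6.99 and 7.56 and lost its call without wild-type array 1 or labelled-null array 2 (highest adjusted p = 0.118). Without labelled-null array 1, 1 stromal marker was called lower. Of 11 B cell markers 8 were at background and 3 called, Cd79b higher and Blnk and Cd22 lower, each losing its call without at least 1 of the arrays. Dendritic cell markers, 5 of 12 at background on all 4 arrays, had 1 called, Zbtb46, from 4.14 and 4.02 to 5.38 and 5.68, and 3 were called without wild-type array 2. The summed dendritic signal was 12.69 and 14.89 against 14.79 and 16.63, with array 2 above array 1 in both genotypes. Megakaryocyte markers had 3 of 14 called higher and 0 lower (median 0.24, and 0.09 to 0.48 with 1 array left out), and 4 of the 14 were at background on all 4 arrays. Over genes above background 20.5% were called higher and 13.7% lower. Itga2b, the platelet integrin alpha IIb, was 5.79 and 5.82 against 7.47 and 7.62, below its progenitor means of 8.07 and 8.70, and Pf4, platelet factor 4, was 8.97 and 12.01 against 10.47 and 8.63 and was not called. The 3 higher megakaryocyte calls became 1 without wild-type array 2 or labelled-null array 2, and 1 marker was called lower without wild-type array 1. Of 4 sex chromosome genes 1 was called, the Y-linked demethylase Kdm5d, lower at 9.36 and 9.43 against 8.60 and 8.63 (-0.78, adjusted p = 0.00416). The Y-linked Eif2s3y was 11.05 and 11.02 against 10.84 and 10.74 and was not called.

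Developmental regulators, the class of genes best known as Polycomb targets, mostly stayed silent. Of 70 developmental transcription factors 62 were at background on all 4 arrays, 3 were called higher and 0 lower (median 0.01). Tbx15, a T-box factor, was 4.53 and 4.87 in wild-type and 8.97 and 8.52 in labelled-null neutrophils, and Foxa1, a forkhead factor of endoderm, averaged 4.83 in wild type and 6.12 in labelled-null neutrophils. The third was Sox6, which acts with the erythroid factors; it averaged 4.15 in wild type and 7.63 in labelled-null neutrophils. In progenitors Tbx15 stood at 5.04 against 10.39 and Foxa1 at 4.63 against 8.35, both higher before differentiation as well, whereas Sox6 stood at 4.25 against 4.41. Of 54 developmental signalling genes 7 were higher, 2 lower and 35 at background on all 4 arrays, and the 2 lower became 1 without wild-type array 1 or labelled-null array 2. Ryk, a Wnt co-receptor, was 5.29 and 4.71 against 9.42 and 9.53, and Smo, the Hedgehog transducer, was 5.29 and 5.49 against 9.21 and 9.50. Smo was 7.07 and 13.28 in progenitors, so its labelled-null level was lower after differentiation than before. Bmpr1a, a BMP receptor, was 8.11 and 6.99 against 10.49 and 9.77. Imprinted genes had 1 of 21 higher, 1 lower and 14 at background on all 4 arrays, with the non-coding Peg13 at 8.27 and 7.44 against 6.10 and 5.65.

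The progenitor comparison shares no array with the neutrophil comparison. Both take the spread of a gene from 1 fit to all 12 arrays, so their calls are not separate readings. In progenitors 1969 of 65956 clusters (2.99%) were called. Among genes with 1 symbol, 385 were called higher at both stages, which is 12.5% of the genes higher in neutrophils and 46.9% of the 821 higher in progenitors. In the lower direction 222 were shared, 11.3% of the neutrophil calls and 41.6% of the 534 progenitor calls. The 46.9% and 41.6% are to be read beside the neutrophil calls over all genes, 10% higher and 6.39% lower. Over genes above background in neutrophils these were 20.5% and 13.7%. The 12.5% and 11.3% are to be read beside 821 and 534 of all 30740 genes. Opposite calls were fewer, 33 genes higher in neutrophils and lower in progenitors and 23 the reverse.

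**Figure D5:**
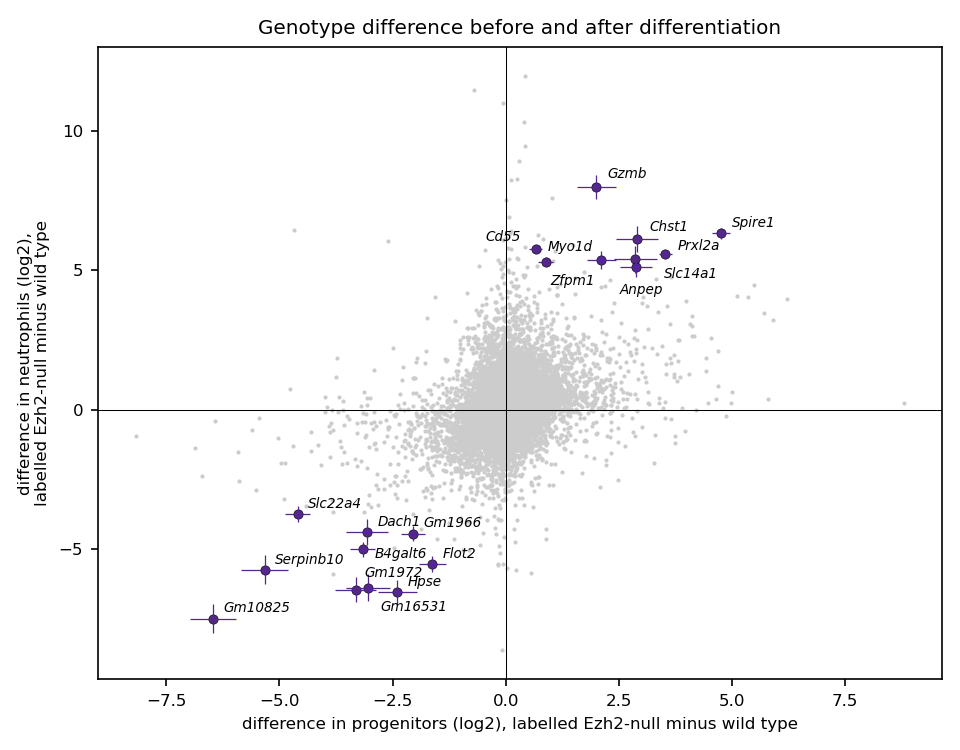
Genotype difference in neutrophils against that in progenitors (both log2, labelled Ezh2-null minus wild type), with all genes in grey and, in purple, genes called in the same direction at both stages with the largest neutrophil differences; bars are standard errors. Spire1 and Prxl2a combine large differences at both stages, while most of the grey points furthest up, such as Tpsb2, lie near 0 on the progenitor axis.

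Spire1, an actin nucleator, was 5.59 and 10.34 in progenitors and 5.15 and 4.98 against 11.08 and 11.70 in neutrophils. Prxl2a, a peroxiredoxin-like protein, was 6.51 and 10.03 in progenitors and 6.55 and 6.45 against 11.94 and 12.23. Anpep, aminopeptidase N or CD13, was 4.98 and 7.87 in progenitors and 10.37 and 10.15 against 14.69 and 16.06. Myo1d, an unconventional myosin, was 5.25 and 7.37 in progenitors and 8.13 and 6.97 against 13.18 and 12.68. Of genes lower at both stages, B4galt6, which makes lactosylceramide, was 8.54 and 5.38 in progenitors and 10.67 and 11.08 against 5.89 and 5.84. Dach1, a transcriptional cofactor, was 9.24 and 6.18 and then 11.30 and 10.02 against 6.41 and 6.14. Slc22a4, a carrier of ergothioneine, was 9.92 and 5.32 and then 9.66 and 8.72 against 5.45 and 5.45.

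The dependence on stage was tested directly as the interaction of genotype with differentiation, and 2911 of 65956 clusters (4.41%) passed. With GSK343, an inhibitor of EZH2 set against its vehicle in neutrophils on 4 other arrays (0.5 µM for 9 days per the sample labels, 1 µM per the series text), 1 cluster was called (0.00152% of 65956; limma, with 3963 at an unadjusted p under 0.05). It was Cpa3, higher by 2.99 (adjusted p = 0.0187), the direction seen in the labelled-null neutrophils.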

How the data were processed

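RNA of HoxB8-ER cells was measured on 12 arrays in 6 groups of 2. The table as deposited holds 1 log2 signal for every cluster and array, made with Affymetrix Expression Console and Transcriptome Analysis Console per the submitters' processing notes, and no source used here names versions, summarisation or build. The GSK343 and vehicle arrays had lower medians (3.88 to 3.96) than the other 8 (4.54 to 4.65). Control probe sets (6732) were left out. Of 65956 clusters, 31212 carry 1 symbol, 1538 several and 33206 none. Group means were fitted over 12 arrays with limma 3.58.1 in R 4.3.3 (lmFit, eBayes), adjusted p-values are Benjamini-Hochberg values over all clusters, and 0.05 was the threshold. The number of arrays limits the precision.

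A gene took its brightest cluster, and lists were matched by exact symbol. Named genes were Ezh2, the 15 genes with the largest called difference in each direction, the leading called and the brightest uncalled members of each list, the leading members of each family and genes called at both stages. The comparison, lists and rule were chosen with earlier results of these data known. Promoters came from RefSeq (GRCm38.p6), with an entry for 18200 of 30740 genes. The fitting was tested on simulated data. Alternatives were other sets of arrays, the replicate block, scaling, dim clusters, limma's trend and robust options, a 2-fold minimum and leaving out each array. A higher background limit (per array, the larger of the antigenomic limit and the median of the negative controls) and counts at an unadjusted p were added after seeing the data. Arrays with the same number were not treated as paired.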

Additional observations from a re-analysis of the deposited data

Results flagged for a closer look

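The genotype difference in neutrophils differed from that in progenitors, by a direct test of the interaction in limma, for 2911 of 65956 clusters. The values below are the neutrophil difference minus the progenitor difference (log2), each with 2 arrays a group. Apart from Ezh2, the genes were chosen for large neutrophil differences. Those differences are part of the interaction, so large values of the same sign are favoured by the choice. For Ezh2, whose difference was positive in neutrophils and negative in progenitors, the interaction was 2.89.

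Mast cell and basophil genes gave 11.55 for Tpsb2, 12.17 for Cpa3, 8.13 for Cma1, 11.11 for Mcpt8, 5.99 for Gzmb and 6.57 for Cyp11a1. Erythroid genes gave 11.06 for Car2, 9.92 for Rhag, 9.04 for Aqp1, 8.65 for Ermap, 7.51 for Slc4a1, 6.84 for Sptb and 6.28 for Cpox. Aldh1a1, a retinaldehyde dehydrogenase, gave 8.02 and Spire1 gave 1.57.

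Among genes lower in labelled-null neutrophils, the interaction was -8.55 for Plbd1, -4.15 for Hpse, -5.95 for Maf, -3.91 for Flot2 and -5.46 for Lrg1. It was -5.34 for Olfml2b, -5.02 for Pla2g7, -4.21 for Clec4b2, -3.14 for Gm1972 and -3.34 for Gm16531. The transcripts 4930438A08Rik and 9830166K06Rik gave -6.42 and -5.70. Gm10825, Cd48 and Serpinb10, lower in neutrophils, did not pass the interaction test.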

How the results depend on the processing

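Among the 198 called genes named by the selection rule, no direction reversed under any alternative run. Genes named outside that rule, such as Gata1, were not part of this check. A 2-fold minimum left 5004 of the 7791 called clusters, 1996 of them lower. Leaving out 1 array at a time gave 4023 to 6319 calls, 2534 to 3660 higher and 1489 to 2742 lower. Each such fit leaves 1 array in a group, assumed to vary like the other groups, and the cause was not tested. With the replicate number as a block, 4336 clusters were higher and 3176 lower, and 196 of 198 named calls were kept. Same-numbered arrays of the 2 neutrophil groups deviated with a correlation of 0.1851, the highest of any pair of groups, and the other pairs ranged from -0.2519 to 0.1712. Since the labels name nothing shared and not every pair of groups was over 0.1, the arrays were not treated as paired, and a shared structure between same-numbered neutrophil arrays was not excluded. Of the 198 named calls, 178 were kept with the 8 genotype arrays, 167 with the 4 compared arrays, 196 after median centring, 195 after quantile normalization and 168 without labelled-null array 2. Signal near background limits the genes called there. With the 8 genotype arrays alone, lower calls fell from 12 to 7 for cytokine receptors, 12 to 6 for Fc and paired receptors and 6 to 3 for antigen presentation, and higher calls fell from 6 to 2 for cytokines and 8 to 5 for integrins. With the 4 compared arrays alone those counts were 6, 4, 3, 1 and 4, and the lower calls of proximal signalling genes fell from 16 to 10. Leaving out dim clusters tests fewer genes of each list, and the median became larger, for serine proteases to 2.58 and for Oas genes to 3.18.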

Other observations

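The counts in this paragraph are to be read beside 10% called higher and 6.39% lower over all genes. Over genes above background the shares were 20.5% and 13.7%. Stem and progenitor markers had 5 of 17 called higher and 3 lower, with a median of -0.02. Zinc finger genes named Zfp had 22 of 372 higher and 46 lower (median -0.12), and without labelled-null array 2 the counts were 11 and 17. Solute carriers had 41 of 385 higher and 44 lower, and without that array 27 and 23.

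Wild-type array 2 exceeded array 1 in 25 of 28 ribosome biogenesis genes, by a median of 0.50, against a median of -0.02 over all genes. Neutrophil markers were lower on array 2 of each genotype, by medians of -0.60 in wild type and -0.59 in labelled-null neutrophils.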
